A study of Homo sapiens with 8 samples.

Results

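The GIMAP genes encode GTPases of the immunity-associated protein family and lie side by side on the long arm of chromosome 7 at 7q36. The 7 members were listed by name, GIMAP8, GIMAP7, GIMAP4, GIMAP6, GIMAP2, GIMAP1 and GIMAP5 in their order along the chromosome, and 7 of 7 were found among 19970 protein-coding genes on chromosomes 1 to 22 and X. They were picked as lymphoid genes that a breast cancer line should not use, and they were selected on the share of bases covered by peaks around their transcription start sites (TSS) in these same libraries. The values of these shares are therefore given as a description, with no test of All gRNA against No gRNA at the genes.

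GIMAP proteins carry a GTP-binding domain of the AIG1 type, and several of them sit on intracellular membranes. They are known mainly from T cells, B cells and other blood cells, where they take part in lymphocyte survival and development. Trimethylation of lysine 9 of histone H3 (H3K9me3) marks repressed chromatin and often covers clusters of related genes, while trimethylation of lysine 4 (H3K4me3) marks the starts of genes that are active or ready to be transcribed.

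The cells were SUM159, an established line of triple-negative breast cancer. In the All gRNA group the cells had been transduced with the lentiviral vector pLV-KRAB, which expresses dCas9-KRAB (a nuclease-dead Cas9 joined to the repressor domain KRAB), together with 4 guide RNAs directed at the promoter of ZEB1 on another chromosome. In the No gRNA group the same dCas9-KRAB vector carried no targeting guide (the empty vector control), so both groups expressed the repressor. Transduced cells were selected with puromycin. Native ChIP-seq was performed for each mark, with 2 libraries per group labelled as biological replicates, and 8 broad peak lists were deposited. No library of unmodified cells was analysed here.

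All deposited peaks were used, and a share is the percentage of bases in a window that lie in a peak. H3K9me3 was read over the TSS ± 10 kb and H3K4me3 over the TSS ± 1 kb. The H3K9me3 peaks covered between 23.9% and 25.4% of the genome in each library, and the H3K4me3 peaks between 20.6% and 30.8%. The sequencing depth is unknown, so no counting error can be attached to a share. At ZEB1, the target of the guides, H3K9me3 covered 79.4% and 82.0% with guides (All gRNA) and 4.57% and 1.33% without (No gRNA), a difference of 77.8 percentage points (exact permutation test, two-sided, p = 0.33, the smallest value that 2 against 2 libraries allow). H3K4me3 covered 0% and 100% at ZEB1 under the label All gRNA, and again 0% and 100% under the label No gRNA (exact permutation test, two-sided, p = 1). The deposited file names give 2 of the 4 H3K4me3 libraries, library 2 labelled All gRNA and library 1 labelled No gRNA, the condition opposite to their label. With those libraries exchanged, a reading added after seeing the data, ZEB1 would have H3K4me3 shares of 0% and 0% with guides against 100% and 100% without, so the targeted gene goes against these labels. H3K4me3 libraries are named here by label alone, and no direction is drawn from that mark. VIM, CD44 and AXL, genes that mesenchymal breast cancer lines use, had H3K4me3 shares of 100% in all 4 libraries except for CD44 in library 2 labelled No gRNA, with 78.6%.

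The promoters of 4 members are shown because they carry the contrasts described here. GIMAP4 had the widest gap in H3K9me3, GIMAP2 held the strongest H3K4me3 peak of the cluster, GIMAP5 held H3K4me3 peaks at a start inside the gene, and GIMAP7 held none. Each sequence runs 5′ to 3′ on the plus strand from 250 bases before to 50 bases after the RefSeq start (GRCh38.p14), and capitals mark CG dinucleotides. The windows are chr7:150514622-150514921 for GIMAP7, chr7:150567140-150567439 for GIMAP4, chr7:150685456-150685755 for GIMAP2 and chr7:150737168-150737467 for GIMAP5.
GIMAP7: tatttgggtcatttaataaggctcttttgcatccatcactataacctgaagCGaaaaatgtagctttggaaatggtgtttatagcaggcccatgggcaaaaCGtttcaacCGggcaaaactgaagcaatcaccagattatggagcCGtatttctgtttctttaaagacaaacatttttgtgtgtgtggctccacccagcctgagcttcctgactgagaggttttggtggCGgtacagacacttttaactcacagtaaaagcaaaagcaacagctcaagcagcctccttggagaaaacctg
GIMAP4: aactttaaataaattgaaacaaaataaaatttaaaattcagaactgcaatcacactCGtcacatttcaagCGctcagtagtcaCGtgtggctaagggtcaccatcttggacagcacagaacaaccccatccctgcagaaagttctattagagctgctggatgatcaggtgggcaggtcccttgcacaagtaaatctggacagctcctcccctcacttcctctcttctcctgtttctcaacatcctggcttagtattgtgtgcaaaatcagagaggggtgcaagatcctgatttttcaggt
GIMAP2: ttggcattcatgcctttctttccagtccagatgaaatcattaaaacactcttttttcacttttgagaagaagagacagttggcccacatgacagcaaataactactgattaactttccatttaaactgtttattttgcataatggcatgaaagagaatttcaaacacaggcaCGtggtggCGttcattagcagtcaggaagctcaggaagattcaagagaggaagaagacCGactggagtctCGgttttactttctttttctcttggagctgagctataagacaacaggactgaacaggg
GIMAP5: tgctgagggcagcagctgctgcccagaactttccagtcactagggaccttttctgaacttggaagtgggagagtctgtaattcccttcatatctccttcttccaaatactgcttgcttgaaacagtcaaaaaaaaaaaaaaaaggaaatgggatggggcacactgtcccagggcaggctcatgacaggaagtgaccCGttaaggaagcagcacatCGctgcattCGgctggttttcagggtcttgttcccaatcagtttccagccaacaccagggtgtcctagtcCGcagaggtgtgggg

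All 7 members were matched by symbol to the RefSeq promoters, and all of them were poor in CG. They held between 3 and 8 CG dinucleotides in 300 bases, with a median of 4, against a median of 21 over 22012 protein-coding promoters, of which 28.1% held 8 or fewer. Their median GC content was 49.7% against 62.3%. The core motif of ETS factors (GGAA, on either strand) occurred in 7 of 7 member promoters and in 95.1% of all promoters. The core of RUNX factors (TGTGGT, on either strand) occurred in 0 of 7 and in 11.3% of all. The letters TATAAA, on either strand, occurred in 1 of 7 and in 9.49% of all. That 1 was GIMAP7, where they lie on the minus strand. These are counts of letters in short windows.

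H3K9me3 covered more of the TSS ± 10 kb in the All gRNA group at 7 of 7 members by group mean, and at 5 of 7 both All gRNA libraries lay above both No gRNA libraries. Over all promoters the mean was higher in All gRNA at 32.2%. The libraries separated in that direction at 11.0% and in the opposite direction at 24.4%. The median difference was 17.2 percentage points over the members and -0.92 over all promoters. Only GIMAP4 had a gap of at least 25 points between the lowest All gRNA and the highest No gRNA library, the rule used here to call a promoter. That rule called 0.18% of the 19970 promoters higher in All gRNA and 0.0351% lower. As the members were selected on this contrast, nothing is read from their count.

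GIMAP8 (ENSG00000171115.4, chr7:150450630-150479393 in hg38, on the plus strand like all members but GIMAP6), whose protein holds several GTPase domains in tandem, had H3K9me3 shares of 36.6% and 49.6% in the All gRNA libraries and 18.7% and 33.7% in the No gRNA libraries. The groups did not overlap, but the gap of 2.86 points was far smaller than the spread within either group. GIMAP7 (ENSG00000179144.5, chr7:150514872-150521073), whose GTPase pairs with other family members, had shares of 34.2% and 36.2% against 20.7% and 15.5%. Its libraries agreed closely within each group, and the gap was 13.6 points.

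GIMAP4 (ENSG00000133574.10, chr7:150567369-150573953), which is studied for its part in T cell death and cytokine release, had shares of 64.3% and 65.8% (All gRNA) against 34.1% and 33.1% (No gRNA). The group means were 65.1% ± 1.07 and 33.6% ± 0.71 (SD, n = 2 each), a difference of 31.4 points that was far larger than the spread within either group and ranked 50 among all 19970 promoters. With the TSS ± 5 kb its gap was 19.5 points and the call was lost. GIMAP6 (ENSG00000133561.15, chr7:150625375-150632648), linked to autophagy in lymphocytes and the only member on the minus strand, had 53.8% and 68.2% against 47.1% and 27.6%. Its difference of 23.6 points came with SDs of 10.2 and 13.8, and the groups were 6.68 points apart.

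GIMAP2 (ENSG00000106560.11, chr7:150685697-150693641), known for its place on lipid droplets, had shares of 35.9% and 62.0% against 33.7% and 29.3%. The lower All gRNA library lay only 2.18 points above the higher No gRNA library. GIMAP1 (ENSG00000213203.3, chr7:150716606-150724284), needed by mature T and B cells, had 63.3% and 45.0% against 34.7% and 50.7%, and the groups overlapped. GIMAP5 (ENSG00000196329.12, chr7:150722253-150750033), whose loss in rodents causes lymphopenia, had 35.0% and 16.8% against 17.9% and 30.1%, and the groups overlapped there too, with a difference of 1.89 points and SDs of 12.9 and 8.59. That difference became -7.21 points without library 1 of All gRNA and -4.18 points without library 1 of No gRNA. The starts of these last genes lie 5647 bases apart and their windows share 14354 bases, so they are not separate measurements.

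**Figure D1:**
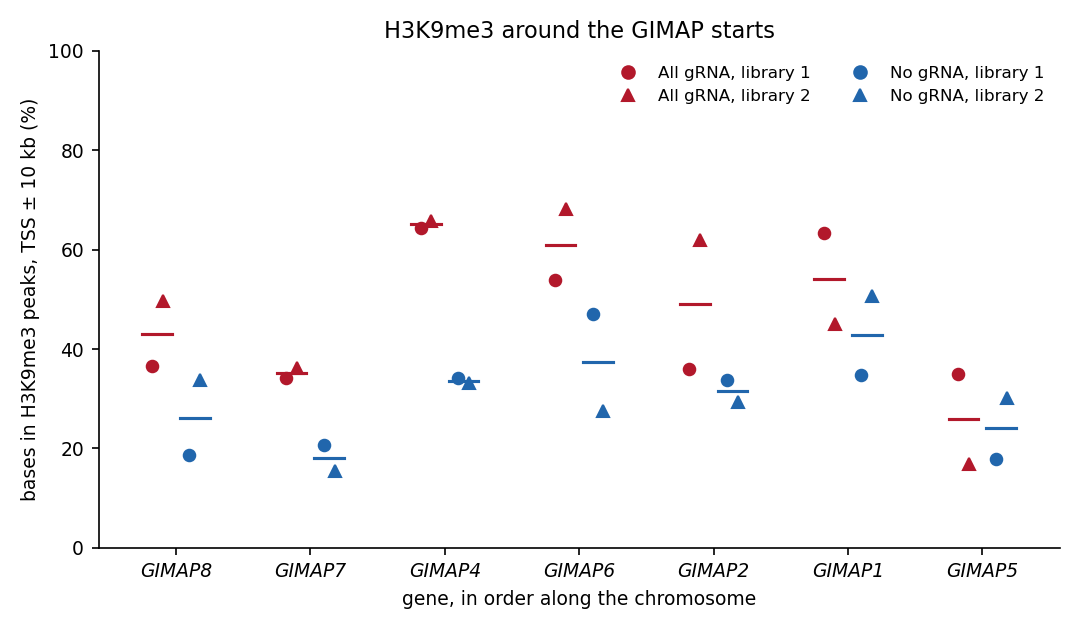
Share of bases in H3K9me3 peaks within 10 kb of each GIMAP start (y axis, percent), genes in chromosomal order (x axis). Points are libraries, red for All gRNA and blue for No gRNA, and bars are means of 2 libraries. GIMAP4 shows the widest separation, 64.3% and 65.8% against 34.1% and 33.1%, while the groups overlap at GIMAP1 and GIMAP5.

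The members already ranked high in H3K9me3 without a guide. Each library's shares were placed among its own 19970 promoters. The members lay between the percentiles 69.0 and 94.4 over the 4 libraries. GIMAP4 lay at 94.3 and 94.1 with guides against 89.4 and 87.2 without, and GIMAP7 at 88.5 and 88.1 against 79.5 and 69.0. GIMAP8 lay at 89.3 and 91.6 against 76.9 and 87.6. On this scale the libraries separated in the same direction at these 3 members and overlapped at the other 4, among them GIMAP6 and GIMAP2, whose separation in shares was thus lost. Over all promoters the ranks separated higher in All gRNA at 25.6%.

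The difference was not limited to the starts. From the start of GIMAP8 to the end of GIMAP5, chr7:150450630-150750033 in hg38, H3K9me3 peaks covered 50.8% and 51.8% with guides against 28.7% and 30.0% without. The group means were 51.3% ± 0.75 and 29.3% ± 0.95 (SD, n = 2 each), and the gap of 20.7 points exceeded the spread within groups. Among 9754 genome windows of the same length with a peak in any H3K9me3 library, 33.0% separated with All gRNA higher and 31.9% with All gRNA lower. In the same direction as the cluster, 0.625% had a gap at least as wide.

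Much of the covered sequence lay between the genes, where the largest gap among gene bodies and intervals was also found. The stretch between GIMAP7 and GIMAP4 had 63.1% and 67.6% against 36.2% and 33.3%, and that between GIMAP6 and GIMAP2 had 39.0% and 50.8% against 16.7% and 20.4%. All 5 stretches between neighbouring genes up to GIMAP1 separated, with gaps from 10.5 to 27.0 points. No genome share is given for regions of these lengths, and separation was commoner in longer windows. With All gRNA higher, 12.8% of 5 kb windows of the genome separated and 33.0% of windows as long as the cluster. The 5 kb windows include those without a peak and the longer ones do not, so these shares have unlike bases. Within gene bodies, the groups separated at GIMAP8, with 57.7% and 39.9% against 25.9% and 24.9%, at GIMAP6, with 90.1% and 91.5% against 74.1% and 46.3%, and narrowly at GIMAP5. The bodies of GIMAP7, GIMAP4, GIMAP2 and GIMAP1 overlapped between groups. At GIMAP4 the body had 77.4% and 23.4% against 18.5% and 42.9% and so lacked the agreement that its libraries showed over the TSS ± 10 kb.

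In windows of 5 kb, 57 of 61 in the cluster had a higher All gRNA mean, 37 of 61 separated with All gRNA higher and 0 of 61 with All gRNA lower. Across 606007 windows of the genome, 36.7% had a higher All gRNA mean. Of these genome windows, 77636 (12.8%) separated with All gRNA higher and 63072 with All gRNA lower. The 25-point rule called 1.52% of the genome windows higher, against 6 of 61 in the cluster. The called windows lay along most of the cluster, with centres from 11.9 to 232 kb from the GIMAP8 start. The widest difference, 59.3 points, lay in the window centred 96.9 kb from that start, between GIMAP7 and GIMAP4, with 89.8% and 89.3% against 25.1% and 35.5%. In windows of 1 kb, 32 of 299 were covered by at least 50% in both All gRNA libraries and in neither No gRNA library, 0 of 299 showed the opposite, 33 were covered in all 4 libraries and 87 in none. Over 3031030 such windows of the genome, 1.85% showed the first pattern and 1.11% the opposite, against 10.7% and 0% in the cluster.

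**Figure D2:**
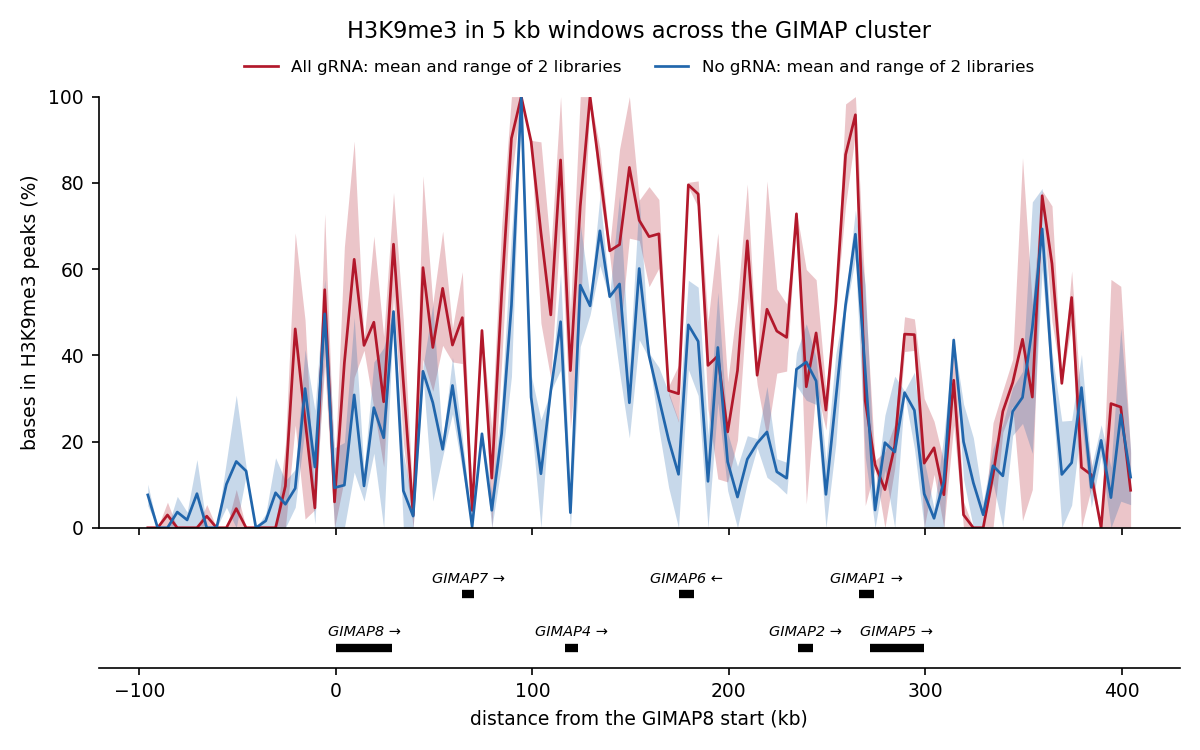
Share of bases in H3K9me3 peaks (y axis, percent) in 5 kb windows against the distance from the GIMAP8 start (x axis, kb). Each window is plotted at its right end, not its centre, so the lines lie slightly right of the genes. Lines are means and bands the range of 2 libraries, red for All gRNA and blue for No gRNA, with the genes and their direction drawn underneath. Inside the cluster 57 of 61 windows have the higher mean in All gRNA, and in the flanks 15 of 40.

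The difference was smaller in the 100 kb on either side of the cluster. The 100 kb before GIMAP8 had H3K9me3 shares of 6.62% and 9.06% with guides against 9.40% and 9.02% without, and the 100 kb after GIMAP5 had 32.4% and 19.5% against 18.0% and 26.8%. In these flanks 4 of 40 windows of 5 kb separated with All gRNA higher and 5 of 40 with All gRNA lower. Of the 606007 windows of 5 kb in the genome, 77636 and 63072 did so. For windows of 50 kb no genome share is given, only the counts nearby. In the cluster 6 of 6 of them separated with All gRNA higher, with differences from 11.8 to 30.5 points and a median of 22.4. On the left side, 7 of 20 windows within 1 Mb separated that way and 2 the other way, with a median difference of 0.38 points, and on the right side 1 of 20 and 5 of 20, with a median of -0.46. The cluster was therefore not the only such stretch nearby: the window that begins 500 kb before GIMAP8 had 54.7% and 52.3% against 28.5% and 39.7%.

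**Figure D3:**
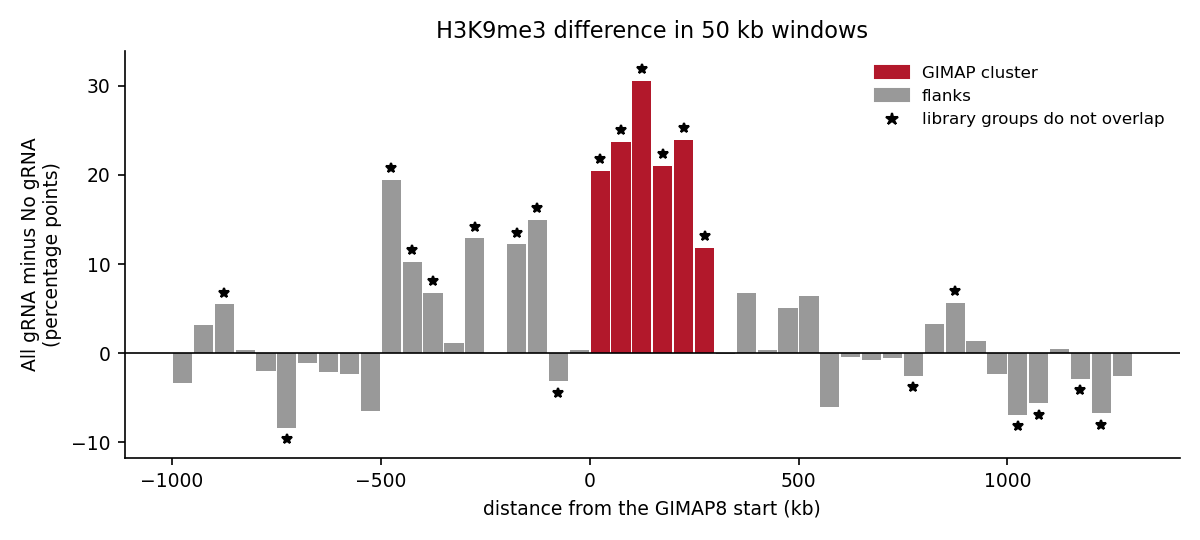
All gRNA mean minus No gRNA mean of the H3K9me3 share (y axis, percentage points) in consecutive 50 kb windows against distance from the GIMAP8 start (x axis, kb). Red bars are the 6 windows of the cluster and grey bars the flanks, and stars mark windows whose library groups do not overlap. The cluster bars run from 11.8 to 30.5 points.

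The 3 nearest genes on each side of the cluster were read for comparison. On the left, ENSG00000284691, ZNF775 and REPIN1, the last 2 of which encode zinc finger proteins, had H3K9me3 shares between 0% and 11.2% in all 4 libraries. On the right, TMEM176B had 58.4% and 45.8% against 39.1% and 56.8%, and TMEM176A, which is transcribed in the opposite direction, had 53.6% and 41.6% against 36.5% and 52.0%. Both membrane protein genes were thus covered about as widely as the GIMAP genes, with overlapping groups. Their windows share most of their bases, as do those of ZNF775 and REPIN1, so the genes of each pair are not separate measurements. AOC1, a diamine oxidase gene, had 34.1% and 22.5% against 15.1% and 19.8%. Over 10 flanking genes, 5 a side, the median difference was 3.74 points and 0 were called, but the groups did not overlap at 5, with All gRNA higher at 3 and lower at 2. Over all promoters the groups separated with All gRNA higher at 11.0% and lower at 24.4%, and 0.18% were called higher and 0.0351% lower. The 3 higher genes were AOC1 and, named after their values were seen, LRRC61 with 62.7% and 46.3% against 12.5% and 41.8% and NOS3 with 41.5% and 31.2% against 16.2% and 28.5%. The LRRC61 difference of 27.3 points exceeded that of every member but GIMAP4, with a gap of 4.46 points. The readthrough gene GIMAP1-GIMAP5 begins beside GIMAP1 and had nearly its values, 62.9% and 44.7% against 34.7% and 50.6%.

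The H3K9me3 peaks of the cluster were weak, and they differed in length more than in height. All gRNA libraries listed 57 and 58 peaks there and No gRNA libraries 62 and 69. The median width was 1647 and 1586 bases with guides against 1038 and 929 without, and the longest peak 13524 and 16379 against 9659 and 6751 bases. Over the whole lists the median widths were 1133 and 1112 against 959 and 929. The median fold enrichment, the ratio of signal to background given by the peak caller, was 1.61 and 1.57 against 1.68 and 1.59, close to the medians of the whole lists, 1.62 and 1.58 against 1.66 and 1.61. Only 2, 1, 2 and 2 peaks of the cluster had a q-value at or below 0.05. With peaks limited to that q-value, no member exceeded 7.58% in any H3K9me3 library, and the groups separated at 0 of 7. The difference therefore lies in regions that the peak caller ranked as weak. In a bulk culture, a mark on few cells and a faint mark on all cells cannot be told apart.

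H3K4me3 was sparse at the members. By label it was called at 0 of 7 in either direction, beside 1.78% of promoters called higher and 2.21% called lower. With the libraries of conflicting file names exchanged, 0 of 7 were called too. The exchanged groups did not overlap at 2 of 7, GIMAP8 and GIMAP6, with gaps of -2.70 and -10.6 points. No share over all promoters is given for that grouping. Over all promoters the median share of the TSS ± 1 kb was between 91.5% and 100% in each library. GIMAP7 and GIMAP1 had 0% in all 4 libraries. GIMAP4 had 0% and 33.9% under the label All gRNA against 25.8% and 0% under the label No gRNA. GIMAP6 had 0% and 15.6% against 0% and 10.6%. The peaks at GIMAP4 and GIMAP6 were weak, with q-values from 0.892 to 1.

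GIMAP8 and GIMAP2 had a peak near the start in all 4 libraries. At GIMAP8 the shares were 45.8% and 66.4% under the label All gRNA against 39.5% and 48.5% under the label No gRNA. The strongest GIMAP8 peak of each library was weak, with fold enrichments between 1.67 and 1.90 and q-values from 0.663 to 0.839. A GIMAP8 peak spanned the start only in library 2 labelled All gRNA. At GIMAP2 the shares were 82.3% and 79.1% against 64.1% and 100%. The GIMAP2 peak spanned the start in all 4 libraries, had the lowest p-value of the whole cluster in each, and had fold enrichments of 2.91 and 2.58 against 2.46 and 3.34. Its q-values were 0.0155 and 0.0871 against 0.113 and 0.00219, so it passed 0.05 in 1 library of each label. Between 1.00% and 1.79% of the peaks of a library had a p-value as low.

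GIMAP5 depended on which start was used. At the GENCODE start the shares were 0%, 0% and 0%, and 46.5% in library 2 labelled No gRNA. That share rested on 1 peak of 930 bases, with a fold enrichment of 1.66 and a q-value of 0.925. The RefSeq start lies 15165 bases downstream, within the gene, and there the shares were 37.5% and 64.7% under the label All gRNA against 38.7% and 37.8% under the label No gRNA. A peak lay within 1 kb of it in all 4 libraries and spanned it in 3, with fold enrichments of 3.04 and 1.75 against 1.97 and 2.01. Only the strongest of these, in library 1 labelled All gRNA, had a q-value below 0.05 (0.0263). The other 6 members have RefSeq starts within 263 bases of the GENCODE start. With RefSeq starts, the H3K9me3 libraries also separated at GIMAP5, 26.5% and 31.3% against 16.9% and 24.8%, a gap of 1.69 points.

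**Figure D4:**
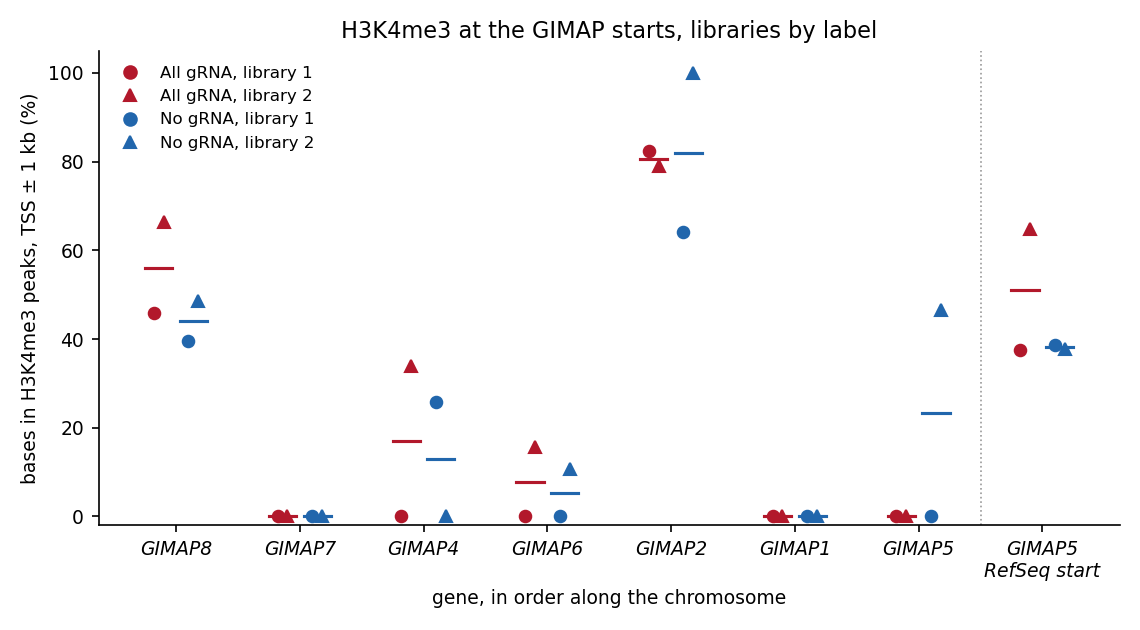
Share of bases in H3K4me3 peaks within 1 kb of each GIMAP start (y axis, percent), by library label, with GIMAP5 shown at its GENCODE and its RefSeq start (x axis). Points are libraries and bars means of 2. GIMAP2 lies between 64.1% and 100% in all 4 libraries, and GIMAP7 and GIMAP1 lie at 0%.

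Promoters as poor in CG as the members had less H3K4me3 in these libraries as a whole. Over 6186 promoters with at most 8 CG, the median share was 32.2%, 42.1%, 43.3% and 44.3%, and between 26.5% and 34.6% were at 0%. Over the 15826 promoters with more CG the median was 100% in all 4 libraries. GIMAP2, with 4 CG, thus lay above the median of its class in each library, and GIMAP7, with 5, among those at 0%.

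Read over the same TSS ± 1 kb, both marks could be set side by side, though they come from different libraries. At GIMAP2 the H3K9me3 share was 0% and 0% with guides against 29.0% and 1.55% without, where H3K4me3 covered at least 64.1%. At GIMAP7, with no H3K4me3, it was 45.8% and 51.8% against 0% and 23.9%, and at GIMAP6 51.1% and 50.8% against 48.2% and 12.7%. GIMAP1, also with no H3K4me3, had 61.4% and 0% against 40.8% and 65.1%. GIMAP8, with weak H3K4me3 peaks in every library, had 41.5% and 0% against 2.1% and 19.3%. GIMAP5 had 22.9% and 38.9% against 0% and 0%. At GIMAP4 it was 0% and 56.7% against 0% and 0%. Members with and without H3K4me3 thus showed no common H3K9me3 pattern at the start. The wide separation at GIMAP4 over the TSS ± 10 kb thus did not hold at the start itself, where 1 All gRNA library had no peak.

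Lists of other genes used by immune cells were read in the same way. Of 36 lymphocyte genes (T cell, B cell and natural killer cell genes such as CD3D, CD79A and PRF1), 8 had a higher and 26 a lower H3K9me3 mean in All gRNA, with a median difference of -2.92 points and 0 called. Of 11 other immune GTPases, the guanylate-binding proteins, MX proteins and IRGM and IRGC, 8 were higher and 3 lower, with a median difference of 1.14 points and 0 called. These differences stand beside the median of -0.92 over all promoters and 17.2 over the GIMAP genes. Over all promoters 32.2% had a higher H3K9me3 mean in All gRNA, and 0.18% were called higher and 0.0351% lower. For H3K4me3, by label, 1 of 36 lymphocyte genes was called higher and 3 lower. Of the 11 other immune GTPases, 2 were called higher and 0 lower. Over all promoters 1.78% were called higher and 2.21% lower for that mark. PRF1, which encodes perforin, had 37.4% and 31.6% under the label All gRNA against 0% and 0%. CD52, a lymphocyte surface protein gene, had 17.6% and 0% against 81.1% and 100%, UBASH3A 21.6% and 0% against 100% and 62.6%, and LCP2, an adaptor of T cell receptor signalling, 0% and 0% against 64.4% and 45.8%. Among the GTPases, GBP5 had 68.5% and 70.4% against 15.3% and 0%, and IRGM 100% and 93.4% against 29.0% and 52.9%. These 6 calls rest on labels that the file names contradict in 2 of 4 libraries. With those libraries exchanged, 0 of 6 were called and the groups overlapped at all 6. A promoter called by label must overlap after that exchange by construction, so the exchange is no check on the calls. No direction is drawn from these calls.

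The mean H3K9me3 profile of the members was 46.2% and 49.1% against 29.6% and 31.4%. It is an average, and single members spread widely around it. They ranged from 34.2% to 64.3% in All gRNA library 1 and from 17.9% to 47.1% in No gRNA library 1. Likeness to this mean is therefore not read as a trait of the members. Among 19935 promoters over 500 kb from any member, 7 lay within 5 points of the mean profile in every library and 101 within 10 points. The 5 closest over the 4 libraries were PRAMEF15, OLFM3, NKX2-3, ADGRD1 and AIFM1, on chromosomes 1, 1, 10, 12 and X, with a largest deviation from 1.89 points at PRAMEF15 to 3.54 at AIFM1. PRAMEF15 had 45.6% and 47.4% against 31.5% and 32.7%. They belong to different gene families, and PRAMEF15 has near-identical copies among which reads may be divided.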

How the data were processed

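The authors ran native ChIP-seq for H3K9me3 and H3K4me3 in SUM159 cells and called broad peaks with MACS2 in each library on its own. Per the study's methods, reads were trimmed with fastp, aligned to hg38 with bowtie2, cleared of excluded regions and duplicates, and extended to 200 bases for peak calling. The submitters' processing notes instead name bcl2fastq 2.17, Trimmomatic 0.33, Bowtie 1.1.2 and MACS2 2.1.0, and whether the input served as control is not given in the sources used here. The deposited columns give, for every peak, a score in whole numbers, the fold enrichment as a ratio, and both the p-value and the q-value as −log10. These values belong to single peaks and were used only to filter, rank or describe peaks. In each list the −log10 p-values reach down to 1.0, so weak regions are included. Read counts were not used here, so depth is unknown.

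Groups and replicate numbers came from the sample labels. Peaks were merged within each library, and the percentage of bases covered was computed with python 3.11.15, numpy 2.4.6, pandas 2.3.3 and scipy 1.17.1 for the TSS ± 10 kb (H3K9me3) or ± 1 kb (H3K4me3) of 19970 GENCODE release 44 protein-coding genes, with 1 TSS per gene at its 5′ end. A promoter was called when the lowest library of a group lay at least 25 points above the highest of the other. No count model could be fitted without counts, and no test was run per promoter. The calculation was tested on simulated peak lists with larger changes than any member shows. This checked the computation of shares and calls, not how often the rule calls a promoter through scatter between libraries. Named genes were the members, the GIMAP1-GIMAP5 readthrough gene, the 3 nearest genes on each side, ZEB1, listed immune genes past the call, and the 5 promoters most like the members' mean profile by the largest difference over the 4 H3K9me3 libraries. The members, the gene lists and the 25-point rule were chosen with earlier results of these data known. Promoter sequences came from RefSeq (GRCh38.p14), and figures were drawn with matplotlib 3.10.9. Alternatives covered q-value limits of 0.05, 0.01 and 0.001, equal covered length, other windows, a gap of 50 points, each library left out, replicate numbers as a block and RefSeq starts.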

Additional observations from a re-analysis of the deposited data

How the results depend on the processing

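With all deposited peaks, the median H3K9me3 difference at the GIMAP genes (17.2 points) stayed between 15.2 and 23.4 points when each library was left out in turn, and was 15.4 points at equal covered length, 17.3 with the TSS ± 5 kb, 22 with the TSS ± 25 kb and 17.2 with RefSeq starts. Libraries separated at 4, 3, 7 and 6 of 7 members under these 4 settings, against 5 of 7. Over all promoters 11.0% separated higher in the main setting. No such share is given for the 4 settings, so these counts are not read as a sign of stability. It was 0 at q-value limits of 0.05, 0.01 and 0.001, which left almost no peaks in the cluster, and 5.31 percentile points on ranks within libraries, a scale chosen after seeing the data. The difference over the whole cluster (21.9 points) ranged from 21.3 to 22.6 without 1 library, was 20.8 at equal covered length, and was 0.26, 0 and 0 at the 3 limits. GIMAP promoters called numbered 1, or 1 to 2 without 1 library (2 without All gRNA replicate 1, with GIMAP2 added, or without No gRNA replicate 1, with GIMAP6 added), 0 at each limit and 0 at a gap of 50 points. With the TSS ± 5 kb the called member was GIMAP6, not GIMAP4. For all promoters, 36 were called higher for H3K9me3, with 1 at a limit of 0.001, 59 with the TSS ± 5 kb, 3 at a gap of 50 points and 75 to 148 without 1 library. The 7 called lower became 1, 2 and 0 at the limits, 33 and 1 with the TSS ± 5 kb and ± 25 kb, 0 at a gap of 50 points and 28 to 93 without 1 library. For H3K4me3, the 356 called higher became 27, 3 and 0 at the limits, 226 with the TSS ± 2 kb, 84 at a gap of 50 points and 707 to 2471 without 1 library, and the 442 called lower became 201 and 41 at limits of 0.01 and 0.001, 121 at a gap of 50 points and 1020 to 1444 without 1 library. With only the library of each group whose file name matches its label, chosen after seeing the data, 1504 and 3216 were called. Fewer libraries widen the chance of a gap by construction, and the cause of the other shifts was not tested. For H3K4me3, 0 of 7 members were called by label. The GIMAP5 difference was -46.5 points without No gRNA replicate 1 and with only the libraries whose file names match. It rested on 1 peak at the GENCODE start in No gRNA replicate 2, with a q-value of 0.925. At the RefSeq start the GIMAP5 share was 37.5% in All gRNA replicate 1 and 37.8% in No gRNA replicate 2. The H3K4me3 median at the GIMAP genes was 0 under most settings and -6.92 with the TSS ± 2 kb. The difference at ZEB1 (77.8 points) ranged from 76.2 to 79.4 without 1 library and was 45.1, 4.83 and 0 at the limits.

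With replicate numbers as a block, 53 and 13 H3K9me3 promoters were called higher and lower, 521 and 589 H3K4me3 promoters, and 1 GIMAP promoter, and mean differences were the same (17.2 points at the GIMAP genes, 21.9 over the cluster). Deviations of same-numbered libraries correlated at 0.027 for H3K9me3 and 0.015 for H3K4me3 across 19970 promoters, which are not independent replicates. With 2 libraries per group this cannot settle whether same-numbered libraries were handled together, and the labels give only the number. RefSeq starts could be matched for 15321 promoters, and the others kept their GENCODE start.

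Unknown depth, 2 libraries per group and weak peaks limit every share given here.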
